A study of Agaricus bisporus with 16 samples.

Results

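Strain 065 BP-8 of the button mushroom, Agaricus bisporus, was set against strain 219 30P at pinning, 27 days after the spawn (colonised wheat kernels) was mixed into the compost. The libraries were chosen by their labels: 2 libraries of 065 BP-8 and 2 of 219 30P on day 27, which are 4 of the 16 in the series. Both strains have the same list of 10438 genes. The series also holds 245 AMA-7 and A15, the strain grown commercially, on day 27, and all 4 strains on day 39, at the first flush of mushrooms, so that 8 combinations of strain and day have 2 libraries each. Every strain grew in crates of the same kind of compost, made from straw of wheat with horse manure, chicken manure and gypsum, under a casing layer, with no other treatment. The stated aim of the study was to find strains that use compost components which A15 leaves largely unused.

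Agaricus bisporus is a litter-decomposing fungus. In compost its mycelium attacks lignin with laccases, which are multicopper oxidases, and with manganese peroxidase, and it takes up sugars and nitrogen compounds freed from straw and microbes. At pinning the mycelium forms the first mushroom primordia, and laccase activity in compost is known to drop as mushrooms grow.

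Total RNA was taken from compost colonised by mycelium, so each value is an average over all mycelium in the sample, and a smaller share of cells that express a gene cannot be told apart from less RNA per cell. Levels are FPKM, which count sequenced fragments relative to transcript length and to the size of a library. The 4 libraries summed to 832823 to 887189 FPKM, and 8512 to 8592 genes stood at 1 FPKM or more in each. Ratios of low values put their relative depth within a 1.08-fold range. Differences are 065 BP-8 minus 219 30P on the log2(FPKM + 1) scale, which understates changes of low genes, and they were tested for the 8798 genes that averaged 1 FPKM or more in the 12 libraries of 065 BP-8, 245 AMA-7 and 219 30P from both days. A gene was called when its adjusted p was under 0.05 (limma, Benjamini-Hochberg). The labels do not say whether the duplicates were taken from different crates, so the p-values reflect the spread of these 12 libraries alone. That spread may be technical, and the fit assumes that it is the same in every group of strain and day. The lectin gene abl (AGABI2DRAFT_194888), the only marker of mushroom tissue found by symbol, stood at 4.53 and 8.92 FPKM in 065 BP-8 and at 4.40 and 3.67 FPKM in 219 30P on day 27. In 065 BP-8 at the first flush it stood at 207 and 264 FPKM.

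The duplicates of 065 BP-8 on day 27 stood further apart than those of any other group. The SD of their log2 differences was 0.45, against 0.30 for 219 30P on that day. The fit assumes equal spread, so its SE and p may understate the spread of 065 BP-8. Of the tested genes 12.5% were more than 1.5-fold apart between them, against 5.38% between the duplicates of 219 30P on that day and 3.14% to 6.06% in the other 6 groups. Replicate 1 of 065 BP-8 was also the one less like 219 30P, with Spearman correlations across genes of 0.935 and 0.946, against 0.953 and 0.959 for replicate 2. Counts and named genes are therefore also given without 1 of these libraries where that matters. Leaving out a library also drops the spread between the duplicates of its group. The p of such a fit rests on the spread of the other groups and does not show how well the value repeats. Where a strain has a pair of values, they are those of its replicates 1 and 2, in that order.

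On day 27, 2445 of 8798 genes (27.8%) were called, 1041 higher (11.8%) and 1404 lower (16%) in 065 BP-8. At least 2-fold apart and called were 738 genes (8.39%), 288 higher (3.27%) and 450 lower (5.11%). Among these, 81 were at least 4-fold higher and 105 at least 4-fold lower, and 7 were at least 16-fold higher and 12 at least 16-fold lower. The values of the 4 libraries did not overlap between the strains in 61.2% of tested genes. The balance of the directions depended on scaling: 42.58% of the called genes were higher as deposited, 53.08% with median-ratio scaling, 51.41% with quantile normalization and 55.44% when libraries were rescaled to their sum without the most abundant gene. The median over all tested genes moved little, at -0.03 as deposited and at 0.02, 0.02 and 0.04 under those scalings. Without replicate 1 of 065 BP-8, 297 genes were at least 2-fold higher and 429 at least 2-fold lower, and without its replicate 2 the counts were 380 and 564. Of the 738 genes, 586 were called whichever of the 4 libraries was left out, 231 higher and 355 lower. Without replicate 1 of 219 30P 548 genes were called higher and 763 lower. With array weights, which count noisier libraries for less and gave both day 27 libraries of 065 BP-8 a weight of 0.411, 621 genes were called higher and 893 lower. A fit of the 4 day 27 libraries alone, in which 2 libraries a strain have to give the spread, called 359 higher and 555 lower. Of 68 genes named here that were called on day 27, 25 lost their call in that fit, and these are given below with their p.

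**Figure D1:**
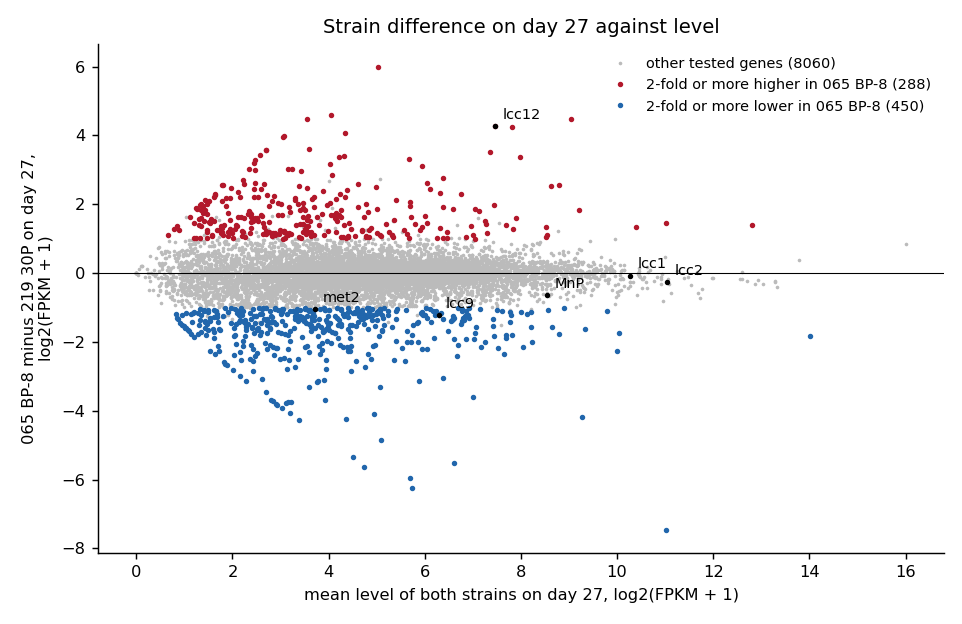
The difference between 065 BP-8 and 219 30P on day 27 (y axis, log2(FPKM + 1)) against the mean level of both strains (x axis, log2(FPKM + 1)), with 1 point per tested gene. The 288 genes called at least 2-fold higher and the 450 called at least 2-fold lower occur at all levels, in unequal shares. Together they were 12.5% of tested genes whose mean in the higher strain was under 10 FPKM. The shares were 7.23% from 10 to 100 FPKM, 6.50% from 100 to 1000 FPKM and 10.4% at 1000 FPKM or more. lcc12 lies far above 0, and lcc1, lcc2 and MnP lie within 1 of it.

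The gene furthest down in 065 BP-8 was AGABI2DRAFT_135729, for which the reference table names no product. It stood at 10.1 and 48.4 FPKM in 065 BP-8, against 4237 and 3994 FPKM in 219 30P. The groups lie far apart: the ratio of the means was 141 in favour of 219 30P. The log2 difference was -7.46 ± 0.50 (SE, limma, adjusted p = 6.44e-06), and -6.38 without replicate 1 of 065 BP-8. The gene was also well expressed elsewhere, with 649 and 609 FPKM in 245 AMA-7 and 439 and 702 FPKM in A15 on the same day, so 065 BP-8 was the low strain and 219 30P the high one.

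AGABI2DRAFT_56609 stood at 0 and 0.9 FPKM in 065 BP-8, against 113 and 96.3 FPKM in 219 30P (-6.26 ± 0.23, adjusted p = 1.95e-07). Its neighbour in the reference order, AGABI2DRAFT_56520, stood at 2.63 and 0.42 FPKM in 065 BP-8, against 72.0 and 58.0 FPKM in 219 30P (-4.85 ± 0.33, adjusted p = 7.26e-06). These are short genes, of 294 and 309 bases in the reference, and 245 AMA-7 had more of both than 219 30P, with 232 and 259 FPKM of AGABI2DRAFT_56609. Another adjacent pair of almost the same lengths, AGABI2DRAFT_56623 (294 bases) and AGABI2DRAFT_56522 (306 bases), also differed. AGABI2DRAFT_56522 was listed at 0 in both libraries of 065 BP-8, against 11.6 and 17.2 FPKM in 219 30P, and was at 0 in both libraries of 245 AMA-7. How the authors' counting shared reads between genes of similar sequence is not given in the sources used here, so the single values of such pairs are uncertain.

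AGABI2DRAFT_221381 stood at 0.84 and 0.48 FPKM in 065 BP-8, against 108 and 94.2 FPKM in 219 30P (-5.95 ± 0.13, adjusted p = 6.22e-09). AGABI2DRAFT_188178 stood at 2.26 and 4.13 FPKM in 065 BP-8, against 166 and 211 FPKM in 219 30P (-5.52 ± 0.32, adjusted p = 2.66e-06). The strains did not overlap in either gene, and leaving out any 1 of the 4 libraries kept both calls. The other strains fell on different sides. AGABI2DRAFT_221381 was high in 245 AMA-7, at 248 and 257 FPKM, and AGABI2DRAFT_188178 was low in A15, at 3.17 and 4.29 FPKM.

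**Figure D2:**
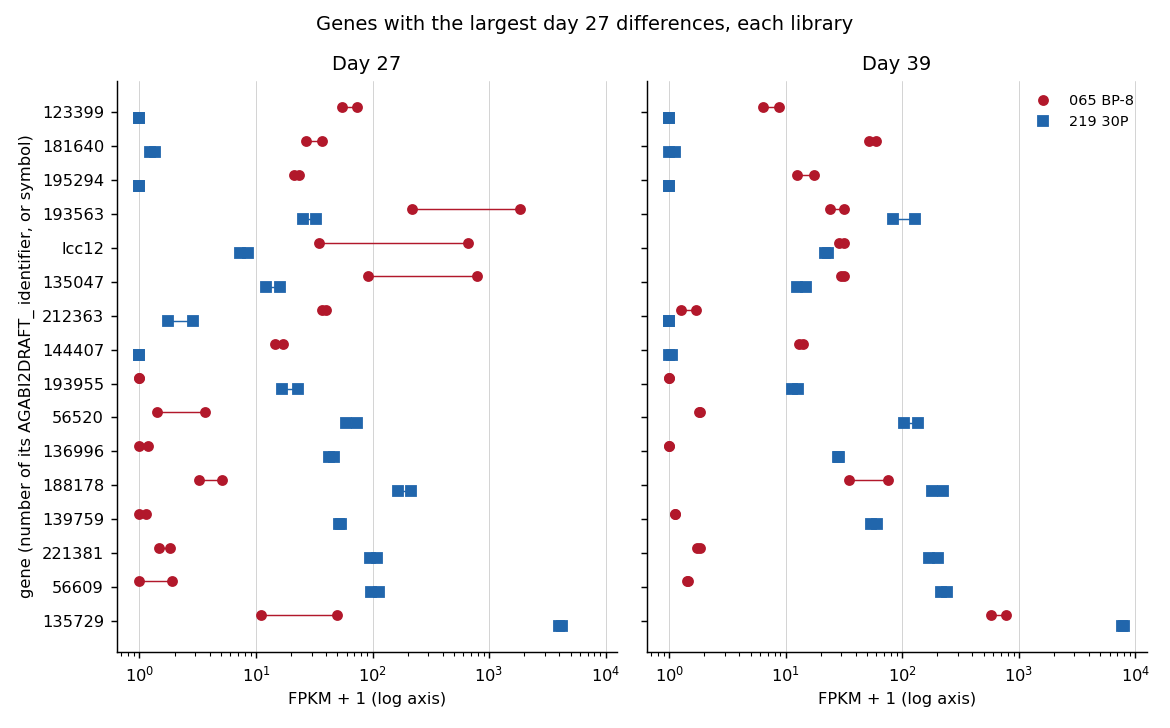
Levels (x axis, FPKM + 1 on a log axis) of the 8 genes with the highest and the 8 with the lowest difference on day 27 (rows), in both libraries of 065 BP-8 (red circles) and of 219 30P (blue squares), on day 27 (left) and day 39 (right). Lines join the replicates of a strain, and the long lines of lcc12, AGABI2DRAFT_193563 and AGABI2DRAFT_135047 show that replicate 1 of 065 BP-8 was 19.6, 8.43 and 8.74 times replicate 2.

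Among the genes furthest up in 065 BP-8, AGABI2DRAFT_123399 came first. It stood at 53.5 and 72.6 FPKM in 065 BP-8 and was listed at 0 in both libraries of 219 30P (5.98 ± 0.21, adjusted p = 1.61e-07, a difference that depends on the pseudocount). In 245 AMA-7 it was also listed at 0, and it is not among the genes listed for A15. AGABI2DRAFT_212363 stood at 35.7 and 38.8 FPKM in 065 BP-8, against 1.90 and 0.77 FPKM in 219 30P (4.07 ± 0.25, adjusted p = 3.2e-06). Here 219 30P was the strain apart, since 245 AMA-7 had 39.8 and 31.2 FPKM and A15 had 61.5 and 75.8 FPKM.

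The duplicates of 065 BP-8 stood far apart for some of the genes with the largest differences. AGABI2DRAFT_193563 stood at 1836 and 218 FPKM in 065 BP-8, against 24.3 and 31.7 FPKM in 219 30P (4.46 ± 0.76, adjusted p = 0.00212). AGABI2DRAFT_135047 stood at 784 and 89.7 FPKM in 065 BP-8, against 11.3 and 15.1 FPKM in 219 30P (4.25 ± 0.72, adjusted p = 0.00204). Both libraries of 065 BP-8 lay above both of 219 30P for each gene, but the size rested on replicate 1: without it the differences were 2.93 and 2.69. Neither was called in the fit of the 4 day 27 libraries alone (adjusted p = 0.0569 for AGABI2DRAFT_193563 and 0.065 for AGABI2DRAFT_135047). Over all 288 genes at least 2-fold higher, the duplicates of 065 BP-8 were more than 2-fold apart in 51, with replicate 1 the higher in 40. Of the 450 genes at least 2-fold lower they were that far apart in 43, with replicate 2 the higher in 40. Over all tested genes they were that far apart in 347, with replicate 1 the higher in 157.

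A small set of genes was read in 1 strain and close to absent from the other on both days. Taking a mean of at least 10 FPKM in the one strain on day 27 and under 0.5 FPKM in all 4 libraries of the other, 6 genes belonged to 065 BP-8 and 9 to 219 30P. AGABI2DRAFT_139759 stood at 0 and 0.13 FPKM in 065 BP-8, against 50.6 and 52.2 FPKM in 219 30P, and on day 39 at 0.12 and 0.12 FPKM against 52.8 and 59.6 FPKM. AGABI2DRAFT_136996 stood at 0 and 0.18 FPKM in 065 BP-8, against 41.2 and 45.3 FPKM in 219 30P. AGABI2DRAFT_193955 and AGABI2DRAFT_184960 were listed at 0 in all 4 libraries of 065 BP-8, against 21.9 and 15.6 FPKM and 19.9 and 12.6 FPKM in 219 30P. On the other side, AGABI2DRAFT_195294 stood at 20.2 and 22.5 FPKM in 065 BP-8 and AGABI2DRAFT_144407 at 16 and 13.5 FPKM, and both were listed at 0 in 219 30P on day 27. AGABI2DRAFT_181640 stood at 26.0 and 35.8 FPKM in 065 BP-8, against 0.37 and 0.23 FPKM in 219 30P.

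The remaining genes of this kind were lower in level. AGABI2DRAFT_177468 and AGABI2DRAFT_210223 lay between 9.64 and 12.25 FPKM in 065 BP-8 on day 27, and AGABI2DRAFT_56522, AGABI2DRAFT_207543, AGABI2DRAFT_190240, AGABI2DRAFT_46341 and AGABI2DRAFT_146675 between 10.75 and 17.2 FPKM in 219 30P.

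Which strain lacked these transcripts differed from gene to gene. Of the 6 genes read in 065 BP-8, 3 were under 0.5 FPKM in all libraries of 245 AMA-7, as were 5 of the 9 read in 219 30P. A15 had at least 0.5 FPKM in some library for all 9 of the second set and for the 5 of the first set that its files list. By a stricter count over both days, 14 genes were listed at 0 in all 4 libraries of 219 30P and at 1 FPKM or more in all 4 of 065 BP-8, and 16 genes had the opposite pattern. These files do not separate a gene that is missing or altered in a strain from one that is not expressed there.

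The most abundant transcript of the series, AGABI2DRAFT_136557, stood at 76657 and 93004 FPKM in 065 BP-8, against 44343 and 49900.3 FPKM in 219 30P on day 27. It held 9.20% and 10.5% of the summed FPKM of 065 BP-8, against 5.14% and 5.70% of that of 219 30P. The difference of 0.84 ± 0.27 was called (adjusted p = 0.0423), but not without replicate 1 (adjusted p = 0.221) or replicate 2 (adjusted p = 0.116) of 219 30P, nor in the fit of the 4 day 27 libraries alone (adjusted p = 0.545). Quantile normalization gives the top gene of every library the same value, so the difference is then 0. AGABI2DRAFT_136569, which lies 7 genes away in the reference order, went the other way, at 6514 and 7910.2 FPKM in 065 BP-8, against 24059 and 27561 FPKM in 219 30P (-1.84 ± 0.19, adjusted p = 0.00011). It differed as much on day 39 (-1.92 ± 0.19, adjusted p = 3.63e-05). Of the 96 tested genes whose mean in the higher strain reached 1000 FPKM, 10 (10.4%) were called at least 2-fold apart, near the 8.39% of all tested genes. Of these 10, 4 were higher and 6 lower in 065 BP-8. AGABI2DRAFT_194030 was one of those higher, with 13232 and 7732 FPKM in 065 BP-8, against 3459 and 4216 FPKM in 219 30P (1.41 ± 0.24, adjusted p = 0.00243). AGABI2DRAFT_193030 was another, with 2523 and 3533 FPKM in 065 BP-8, against 916 and 1315 FPKM in 219 30P (1.44 ± 0.19, adjusted p = 0.000566). In the fit of the 4 day 27 libraries alone AGABI2DRAFT_194030 was not called (adjusted p = 0.0778).

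Among the abundant genes lower in 065 BP-8, AGABI2DRAFT_150620 stood at 454 and 702 FPKM in 065 BP-8, against 1144 and 1263 FPKM in 219 30P (-1.09 ± 0.17, adjusted p = 0.00137). On day 39 it was higher in 065 BP-8, at 411 and 409 FPKM, against 142 and 143 FPKM in 219 30P (1.52, adjusted p = 8.79e-05), and its change between the days passed (adjusted p = 0.000163). AGABI2DRAFT_139877 showed wide spread in both strains, at 139.95 and 559 FPKM in 065 BP-8, against 2719 and 674 FPKM in 219 30P. Its difference (-2.27 ± 0.65, adjusted p = 0.0276) was not called without replicate 1 of 065 BP-8 (adjusted p = 0.155) or replicate 1 of 219 30P (adjusted p = 0.207). In the fit of the 4 day 27 libraries alone neither AGABI2DRAFT_150620 (adjusted p = 0.0538) nor AGABI2DRAFT_139877 (adjusted p = 0.182) was called.

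Of the 88 genes that carry a symbol in the reference, 9 were called higher, 9 lower and 70 were not called on day 27, and only lcc12, lcc9 and met2 were called at least 2-fold apart. The lists that follow were drawn up with earlier results of these data known, and each is given by its counts beside the 27.8% of all tested genes that were called.

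Of the 6 laccase genes 1 was called higher, 1 lower and 4 were not called, among them the abundant lcc1 and lcc2. The most abundant, lcc2 (AGABI2DRAFT_139148), stood at 1667 and 2091 FPKM in 065 BP-8 and at 3027 and 1676 FPKM in 219 30P, and its ranges overlapped (-0.27, 95% interval -0.96 to 0.42, adjusted p = 0.553). For lcc1 (AGABI2DRAFT_146228) the values were 1217 and 1073 FPKM in 065 BP-8 and 1871 and 774 FPKM in 219 30P (-0.07, 95% interval -0.86 to 0.71, adjusted p = 0.895). These intervals leave room for differences of over 1.5-fold in either direction for lcc1. MnP (AGABI2DRAFT_221245), the manganese peroxidase gene, stood at 282 and 296 FPKM in 065 BP-8 and at 528 and 390 FPKM in 219 30P, without overlap but short of the threshold (-0.65, 95% interval -1.31 to 0.01, adjusted p = 0.132).

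The exceptions were lcc12 and lcc9. lcc12 (AGABI2DRAFT_184993) stood at 658 and 33.6 FPKM in 065 BP-8, against 6.25 and 7.46 FPKM in 219 30P. Both libraries of 065 BP-8 were higher, but replicate 1 was 19.6 times replicate 2. The difference of 4.27 ± 0.97 (adjusted p = 0.00926) was 2.14 without replicate 1 of 065 BP-8, and was not called without replicate 1 of 219 30P (4.16). In the other strains lcc12 stood at 9.25 and 7.81 FPKM in 245 AMA-7 and at 5.37 and 24.0 FPKM in A15. lcc9 (AGABI2DRAFT_194714) stood at 49.0 and 39.4 FPKM in 065 BP-8, against 149 and 71.3 FPKM in 219 30P (-1.21 ± 0.30, adjusted p = 0.0143), and was not called without replicate 2 of 065 BP-8 (adjusted p = 0.056) or replicate 1 of 219 30P (adjusted p = 0.0919). lcc10 and lcc3 were low in both strains, at 8.24 and 5.15 FPKM and at 6.61 and 4.90 FPKM in 065 BP-8, and at 14.7 and 7.97 FPKM and at 4.64 and 4.03 FPKM in 219 30P. Neither was called (adjusted p = 0.0982 for lcc10 and 0.185 for lcc3). lcc10 was called lower without replicate 1 of 065 BP-8 (-0.95) and without replicate 2 of 219 30P (-1.06), in fits that lack the spread of those duplicates. In the fit of the 4 day 27 libraries alone neither lcc12 (adjusted p = 0.119) nor lcc9 (adjusted p = 0.105) was called.

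Genes of oxidative phosphorylation, which make up the respiratory chain and ATP synthase of mitochondria, were close between the strains at pinning. Of the 51 with a symbol, 5 were called higher, 3 lower and 43 were not called, with a median difference of 0.08 and none 2-fold apart. In complex I, the NADH dehydrogenase, none of the 24 genes was called by limma, 3 had an unadjusted p under 0.05, and the 95% intervals of all 24 lay between -0.60 and 0.65, so a 2-fold difference lay outside each of them. The higher ones were SDH1 of complex II, QCR1 of complex III, COX5B and COX6A of complex IV and INH1, an inhibitor of ATP synthase. SDH1 (AGABI2DRAFT_190526), the flavoprotein subunit, stood at 119 and 110 FPKM in 065 BP-8, against 79.3 and 84.0 FPKM in 219 30P (0.48 ± 0.08, adjusted p = 0.00139). COX5B (AGABI2DRAFT_184110) stood at 203 and 157 FPKM in 065 BP-8, against 114 and 113 FPKM in 219 30P (0.65 ± 0.11, adjusted p = 0.00258). The lower ones were QCR9 of complex III, COX5A of complex IV and ATP20 of ATP synthase, of which COX5A (AGABI2DRAFT_189180) stood at 119 and 106 FPKM in 065 BP-8, against 152 and 167 FPKM in 219 30P (-0.50 ± 0.11, adjusted p = 0.00721). Leaving out any 1 of the 4 libraries kept the calls of SDH1 and COX5B, but in the fit of the 4 day 27 libraries alone neither was called (adjusted p = 0.0506 for SDH1 and 0.06 for COX5B). In that fit the other 6 were not called either (adjusted p = 0.0592 for COX5A to 0.202 for ATP20), and QCR1, QCR9, INH1, COX6A, COX5A and ATP20 each lost theirs without at least 1 library. With median-ratio scaling 10 of the 51 were called higher and 1 lower, among them 3 of the 24 complex I genes higher. Of all 8798 tested genes 1328 were then called higher and 1174 lower.

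More genes of this list differed at the first flush. The day 27 differences do not use the levels of those libraries, but the p-values of both days share their spread. On day 39, when 46.1% of all tested genes were called, 28 of the 51 were called higher in 065 BP-8 and 1 lower, beside 28.8% and 17.3% of all tested genes, with a median of 0.30. With median-ratio scaling 19 were called higher and 2 lower, with a median of 0.20, and of all tested genes 2001 were then called higher and 1920 lower. The strain difference itself changed between the days in 14 of the 51 genes, a share near the 30.2% of all tested genes. It was lower on day 27 than on day 39 in 13 and higher in 1 (COX6A), beside 20.4% and 9.75% of all tested genes. With median-ratio scaling those counts were 6 and 2, beside 1165 and 1329 of all 8798 tested genes. With quantile normalization they were 8 and 1, beside 1283 and 1225 of all tested genes. The median of this change over all tested genes was -0.15 as deposited and 0.0034 with median-ratio scaling. NdufA13 of complex I stood at 41.2 and 44.7 FPKM in 065 BP-8 and at 34.8 and 41.8 FPKM in 219 30P on day 27 (adjusted p = 0.494), and at 35.5 and 43.5 FPKM in 065 BP-8, against 14.9 and 16.5 FPKM in 219 30P on day 39. Its difference between the days passed the test (adjusted p = 0.0071).

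**Figure D3:**
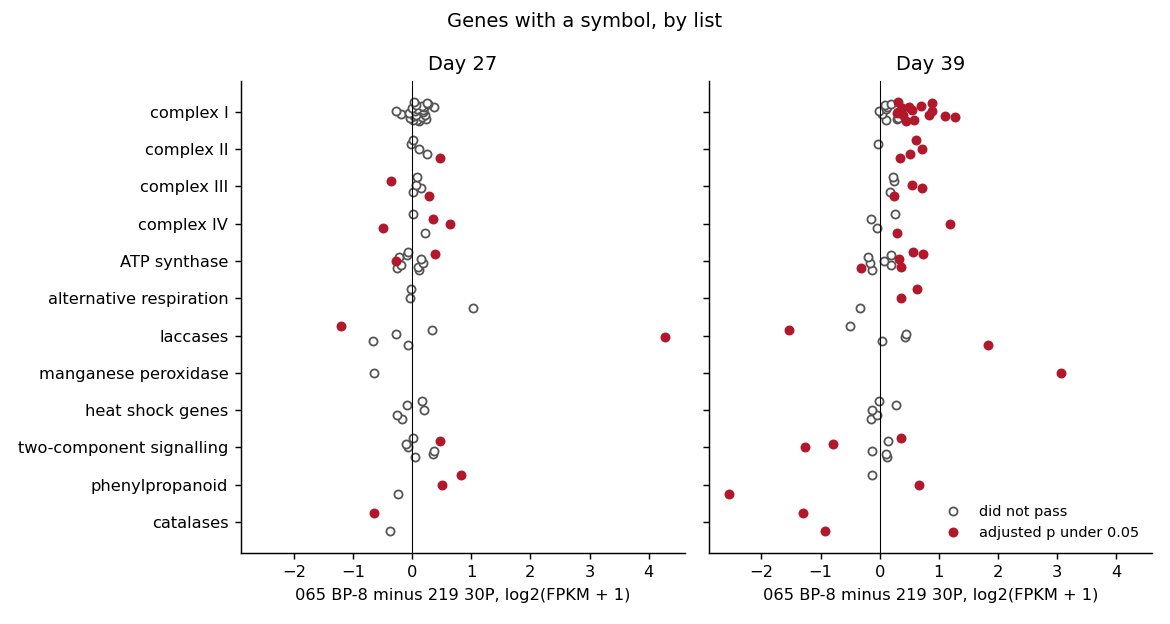
Difference between 065 BP-8 and 219 30P (x axis, log2(FPKM + 1)) for the genes with a symbol, by list (rows), on day 27 (left) and day 39 (right). Filled points were called, open points were not; the complex I genes stand close to 0 on day 27, with none of 24 called, and 23 of 24 lie to the right of 0 on day 39, with 15 called (19 to the right and 10 called with median-ratio scaling).

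AOX (AGABI2DRAFT_152135), the alternative oxidase that bypasses the later complexes of the chain, stood at 252 and 51.5 FPKM in 065 BP-8 and at 45.4 and 67.5 FPKM in 219 30P. Only replicate 1 of 065 BP-8 was high, and AOX was not called (1.03 ± 0.54, adjusted p = 0.182). The difference was -0.10 without that library and 2.17 without replicate 2. The other 2 genes of alternative respiration were not called either.

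Among the other named genes, PAL1 and PAL2, phenylalanine ammonia-lyases, were both called higher in 065 BP-8. PAL2 (AGABI2DRAFT_192690) stood at 467 and 312 FPKM in 065 BP-8, against 194 and 239 FPKM in 219 30P (0.82 ± 0.22, adjusted p = 0.0188), and PAL1 (AGABI2DRAFT_192776) at 281 and 269 FPKM in 065 BP-8, against 180.5 and 205 FPKM in 219 30P (0.51 ± 0.11, adjusted p = 0.0059). PAL2 was not called without replicate 1 of 065 BP-8 (adjusted p = 0.105), and neither gene was without replicate 1 of 219 30P (adjusted p = 0.131 for PAL2 and 0.0585 for PAL1) or in the fit of the 4 day 27 libraries alone (adjusted p = 0.091 for PAL2 and 0.0538 for PAL1). C4H1, the third gene of that list, stood near 1 FPKM in all 4 libraries. Fet3, an iron uptake gene (AGABI2DRAFT_225781) that encodes a multicopper ferroxidase, stood at 7.51 and 9.36 FPKM in 065 BP-8, against 14.3 and 14.8 FPKM in 219 30P (-0.73 ± 0.11, adjusted p = 0.00132, and 0.0645 in the fit of the 4 day 27 libraries alone). At the first flush Fet3 was the higher one in 065 BP-8, at 184 and 198 FPKM, against 54.9 and 60.4 FPKM in 219 30P, and the change of the strain difference passed (adjusted p = 4.01e-05).

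The catalase gene CAT3 stood at 4.49 and 3.31 FPKM in 065 BP-8, against 6.22 and 7 FPKM in 219 30P (-0.64 ± 0.15, adjusted p = 0.0111). It was not called without replicate 2 of 219 30P (adjusted p = 0.0677), and CAT1, the other catalase gene, was not called. The gene met2 has the symbol of a methionine synthesis gene of yeast and stood at 7.82 and 7.26 FPKM in 065 BP-8, against 15.2 and 18.4 FPKM in 219 30P (-1.05 ± 0.30, adjusted p = 0.027). Leaving out any 1 of the 4 libraries ended the call of met2, with adjusted p of 0.0631 to 0.123, and the other gene of the methionine list was not called. The other called genes with a symbol, HMG1 and PhrB, were lower by less than 2-fold, at 78.8 and 81.7 FPKM in 065 BP-8, against 96.5 and 96.6 FPKM in 219 30P for HMG1, and at 4.63 and 5.49 FPKM in 065 BP-8, against 8.66 and 7.49 FPKM in 219 30P for PhrB. Leaving out any 1 of the 4 libraries ended the call of HMG1 (adjusted p = 0.0652 to 0.168), and PhrB was not called without replicate 1 of 065 BP-8 (adjusted p = 0.0589) or replicate 1 of 219 30P (adjusted p = 0.0999). Of the 7 genes of two-component signalling only Tco5, a histidine kinase, was called (0.47 ± 0.16, adjusted p = 0.0476), and it was not without replicate 1 of 065 BP-8 (0.20, adjusted p = 0.25). In the fit of the 4 day 27 libraries alone CAT3, PhrB, HMG1 and Tco5 were not called (adjusted p = 0.116 for PhrB to 0.231 for Tco5).

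None of the 5 heat shock genes was called on day 27 by limma (smallest adjusted p = 0.113, for hspC), and 1 had an unadjusted p under 0.05. hspA, hspC and hspD lay between 896 and 1502 FPKM in 065 BP-8 and between 794 and 1597 FPKM in 219 30P, and hspE at 298 and 409 FPKM in 065 BP-8 and at 314 and 311 FPKM in 219 30P. hspB (AGABI2DRAFT_133986) stood at 896 and 2092 FPKM in 065 BP-8 and at 1483 and 1787 FPKM in 219 30P, so its 065 BP-8 duplicates spanned those of 219 30P. Without replicate 2 of 065 BP-8 hspB was called lower (-0.86, adjusted p = 0.00531), and without replicate 1 of 065 BP-8 hspE was called higher (0.39, adjusted p = 0.0252). hspC was called higher when libraries were rescaled without the most abundant gene (0.28, adjusted p = 0.0359). All 4 libraries were below those of the other strains in this gene, with 10221 and 10074 FPKM in 245 AMA-7 and 6722 and 6301 FPKM in A15.

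Many differences seen at pinning were also present at the first flush. Of the 288 genes at least 2-fold higher in 065 BP-8 on day 27, 207 (71.9%) were called higher on day 39 as well, 77 were not called and 4 were called lower, beside 28.8% of all tested genes called higher on that day. Of the 450 genes at least 2-fold lower, 232 (51.6%) were called lower on day 39, 178 were not called and 40 were called higher, beside 17.3% called lower. In the 288 genes the median difference was 1.56 at pinning and 1.19 at the first flush. In the 450 genes it was -1.45 at pinning and -0.59 at the first flush. Since both sets were chosen for large differences on day 27, medians closer to 0 on day 39 are built into the choice. No test of the sets was made. The calls of both days also use the same estimate of spread for each gene. Genes called on day 27 are thus more easily called on day 39, and all tested genes are not a like comparison for these shares. The strain difference on day 27 minus that on day 39 was called for 88 of the 288 and for 244 of the 450, beside 30.2% of all tested genes, and these counts use the day 27 values that chose the genes. With median-ratio scaling they were 98 and 218, and 28 of the 450 were then called the opposite way on day 39.

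**Figure D4:**
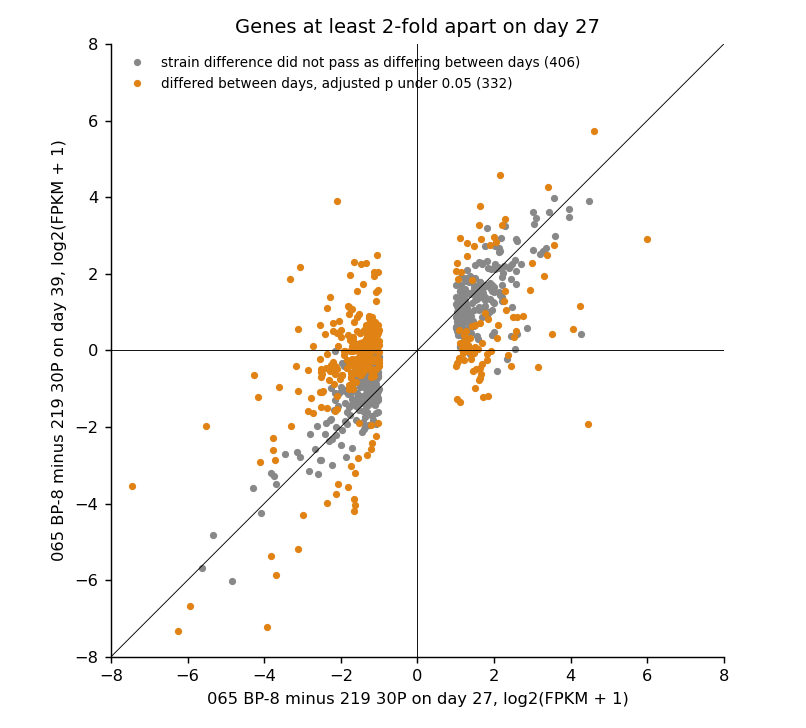
Difference between 065 BP-8 and 219 30P on day 27 (x axis) and on day 39 (y axis), both log2(FPKM + 1), for the 738 genes at least 2-fold apart on day 27, with the line of equality. Orange points (332) passed the test of a change between the days and gray points (406) did not; more of the lower genes than of the higher ones lie on the far side of 0 on day 39, with 40 of 450 and 4 of 288 called the opposite way.

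Some large differences at pinning were smaller or called in the opposite direction at the first flush. The genes given here and in the next paragraph were chosen after their values were seen. They were chosen for the size of the day 27 difference and for a change by day 39. A passing test of that change is therefore in large part built into the choice. AGABI2DRAFT_139020 stood at 323 and 278 FPKM in 065 BP-8, against 22.0 and 29.1 FPKM in 219 30P on day 27 (3.51 ± 0.15, adjusted p = 4.28e-07), and on day 39 at 34.7 and 34.5 FPKM, against 28.6 and 22.4 FPKM. AGABI2DRAFT_212363, described above, was under 1 FPKM in every library of both strains on day 39. AGABI2DRAFT_115967 stood at 0.38 and 2.04 FPKM in 065 BP-8, against 36.1 and 40.1 FPKM in 219 30P on day 27 (-4.25 ± 0.33, adjusted p = 1.55e-05), and was not called on day 39 (-0.63, adjusted p = 0.138). The strain difference changed between the days in all 3 (adjusted p = 4.01e-05, 0.000215 and 0.000623). AGABI2DRAFT_120985 was high in a single group of strain and day. It stood at 2.04 and 2.16 FPKM in 065 BP-8, against 22.3 and 29.6 FPKM in 219 30P on day 27 (-3.11 ± 0.19, adjusted p = 3.34e-06), and was under 3 FPKM in every library of the other 7 groups.

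Other genes turned round. AGABI2DRAFT_178148 stood at 15.03 and 18.86 FPKM in 065 BP-8, against 148 and 148 FPKM in 219 30P on day 27 (-3.06 ± 0.13), and at 52.0 and 45.7 FPKM, against 9.17 and 10.7 FPKM, on day 39 (2.19 ± 0.13). AGABI2DRAFT_191066 stood at 30.1 and 47.7 FPKM in 065 BP-8, against 198 and 136 FPKM in 219 30P on day 27 (-2.09 ± 0.28), and at 799 and 543 FPKM, against 36.9 and 50.2 FPKM, on day 39 (3.91 ± 0.28). In both genes the 2 strains were apart without overlap on each day, in opposite directions. Both were chosen for opposite calls on the 2 days. A passing test of the change (limma, adjusted p = 8.63e-07 and 4.01e-05) is largely built into that choice. AGABI2DRAFT_196225 was nearly silent at pinning in the one strain, at 0.38 and 2.40 FPKM in 065 BP-8, against 23.2 and 18.3 FPKM in 219 30P (-3.32 ± 0.33), and stood at 32.8 and 31.1 FPKM, against 7.29 and 8.86 FPKM, on day 39 (1.86, adjusted p = 0.0013). AGABI2DRAFT_187099 turned the other way, at 17.96 and 16.13 FPKM in 065 BP-8, against 5.49 and 5.15 FPKM in 219 30P on day 27 (1.51 ± 0.19), and at 51.2 and 49.4 FPKM, against 104 and 97.7 FPKM, on day 39 (-0.99 ± 0.19).

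Genes that differed lay next to each other more often than tested genes at large in the reference order of genes, which is that of the sequenced strain H97 and was used here without coordinates. Of the 286 genes at least 2-fold higher that have a place in this order, 69 (24.1%) lay beside another such gene, against 5.30% of all tested genes. Of the 447 at least 2-fold lower, 105 (23.5%) lay beside another such gene, against 8.33% of all tested genes. There were 12 runs of 3 or more neighbours that differed in the same direction, 8 higher and 4 lower, and they held 40 genes. The longest, of 5 genes, was higher in 065 BP-8 and contained AGABI2DRAFT_194030, given above. Its other members were low, with AGABI2DRAFT_194032 at 38.9 and 29.5 FPKM in 065 BP-8, against 5.41 and 5.57 FPKM in 219 30P.

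A run of 4 genes showed the strains in pairs. AGABI2DRAFT_191400 stood at 32.1 and 39.2 FPKM in 065 BP-8, against 2.43 and 2.49 FPKM in 219 30P (3.40 ± 0.14), and its neighbour AGABI2DRAFT_134872 at 31.0 and 33.5 FPKM in 065 BP-8, against 5.58 and 6.79 FPKM in 219 30P (2.21 ± 0.12). A15 was on the side of 065 BP-8, with 68.6 and 68.8 FPKM of AGABI2DRAFT_191400, and 245 AMA-7 on the side of 219 30P, with 2.48 and 2.40 FPKM. The other members, AGABI2DRAFT_191403 and AGABI2DRAFT_191401, showed the same order at lower levels. AGABI2DRAFT_191403 stood at 3.30 and 4.79 FPKM in 065 BP-8, against 0 and 0.15 FPKM in 219 30P, and AGABI2DRAFT_191401 at 13.9 and 16.25 FPKM in 065 BP-8, against 2.83 and 2.51 FPKM in 219 30P. On day 39 the difference of AGABI2DRAFT_191400 was 4.26 (adjusted p = 8.56e-08).

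The longest run lower in 065 BP-8, of 4 genes, began with AGABI2DRAFT_143473, at 11.25 and 9.54 FPKM in 065 BP-8, against 48.8 and 48.3 FPKM in 219 30P (-2.12 ± 0.12, adjusted p = 2.7e-06). For this gene 065 BP-8 was the strain apart, as 245 AMA-7 had 58.95 and 49.4 FPKM and A15 had 52.98 and 58.1 FPKM of AGABI2DRAFT_143473. AGABI2DRAFT_143474, next to it, was called lower on day 27 (-1.17 ± 0.27, adjusted p = 0.0102) but not without replicate 1 of 065 BP-8 (adjusted p = 0.0503) or replicate 1 of 219 30P (adjusted p = 0.0918), nor in the fit of the 4 day 27 libraries alone (adjusted p = 0.125).

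In windows of 20 consecutive genes the median number called at least 2-fold apart was 1, and 41.0% of windows had none. The densest held 11, of which 10 were lower in 065 BP-8. It runs from AGABI2DRAFT_123441, at 55.1 and 75.0 FPKM in 065 BP-8, against 337 and 326 FPKM in 219 30P (-2.35 ± 0.28), to AGABI2DRAFT_196228, at 477 and 419 FPKM in 065 BP-8, against 2324 and 982 FPKM in 219 30P (-1.75 ± 0.32), which was not called in the fit of the 4 day 27 libraries alone (adjusted p = 0.0652). On day 39 AGABI2DRAFT_123441 was the higher one in 065 BP-8 (1.11, adjusted p = 0.00901), though not with a pseudocount of 5 (adjusted p = 0.0734).

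A window with 9 such genes includes lcc3 and ends at AGABI2DRAFT_135729, the gene with the largest difference of all. A stretch of 31 genes chosen around it after the values were seen, from AGABI2DRAFT_192227 to 2 genes past lcc12, had 27 tested genes. Of these, 15 were called (55.6%), beside 27.8% of all tested genes. In 065 BP-8, 5 were at least 2-fold higher and 7 at least 2-fold lower (together 44.4%), beside 8.39% of all tested genes. High shares are built into the choice of this stretch. AGABI2DRAFT_135732, the next gene but one after AGABI2DRAFT_135729, stood at 30.7 and 130 FPKM in 065 BP-8, against 1190 and 1128 FPKM in 219 30P (-4.17 ± 0.48, adjusted p = 0.000238). The gene between them, AGABI2DRAFT_192235, was high in both strains, at 1551 and 1322 FPKM in 065 BP-8 and at 2582 and 2434 FPKM in 219 30P (-0.81 ± 0.16, adjusted p = 0.00565). On the other side of lcc3, AGABI2DRAFT_135726 was higher, at 632 and 293 FPKM in 065 BP-8, against 60.9 and 27.5 FPKM in 219 30P (3.36 ± 0.44, adjusted p = 0.000493). Next to lcc12, AGABI2DRAFT_192247 stood at 55.5 and 2.44 FPKM in 065 BP-8, with replicate 1 far above replicate 2, and at 1.23 and 1.17 FPKM in 219 30P, and it was not called (2.66 ± 0.93, adjusted p = 0.0587). It was called in 4 other fits of all these libraries, with adjusted p of 0.0347 with A15 included to 0.0489 with the replicate number as a block, and without replicate 2 of 065 BP-8 (4.68, adjusted p = 5.29e-06).

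**Figure D5:**
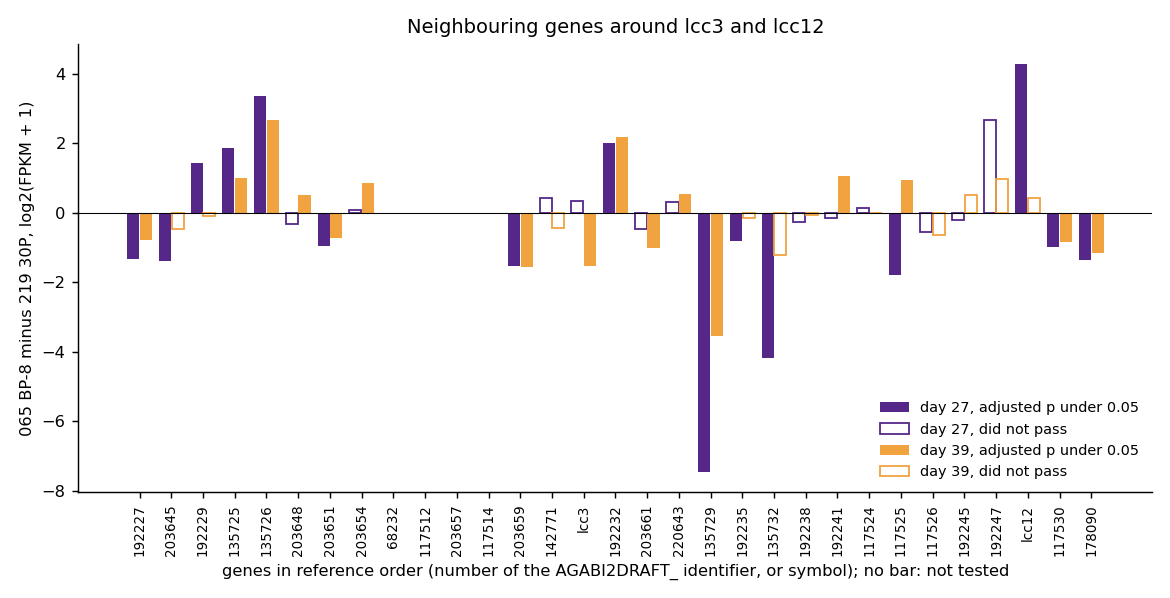
Difference between 065 BP-8 and 219 30P (y axis, log2(FPKM + 1)) on day 27 (purple) and day 39 (orange) for 31 neighbouring genes in reference order (x axis), filled where called. Genes that are higher and genes that are lower in 065 BP-8 lie side by side, with AGABI2DRAFT_135729 at -7.46 and lcc12 at 4.27 on day 27.

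The other strains did not side as a whole with either one. On day 27 the mean of 245 AMA-7 was nearer that of 065 BP-8 in 126 of the 288 genes at least 2-fold higher and in 249 of the 450 at least 2-fold lower. A15 was nearer 065 BP-8 in 167 of the 284 higher and in 196 of the 449 lower genes that its files list. These counts use the levels of the strains only, and no test was made of them.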

How the data were processed

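RNA from compost was sequenced on an Illumina instrument, and per-gene values were deposited by the authors for each library. The deposited values were read as FPKM, with 2 decimals, from their sums and the file layout; per the submitters' processing notes, the tools were RSEM, Bowtie and BWA. The genome build is not given in the sources used here, and the depth in fragments is unknown, so no counting intervals are given. A value of 0 is reported as listed at 0.

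From the deposited FPKM values, log2(FPKM + 1) was fitted with limma 3.58.1 (R 4.3.3, intensity trend) on the 12 libraries of 065 BP-8, 245 AMA-7 and 219 30P, with 6 group means (strain by day), 6 residual degrees of freedom and no replicate block. The A15 libraries list fewer genes and were left out of this fit. They were used for levels, and in an alternative fit of all 16 libraries over the genes listed for A15. Genes that averaged 1 FPKM or more in the 12 libraries were tested (8798 of 10438), with Benjamini-Hochberg adjustment over all of them at 0.05. The contrasts were 065 BP-8 minus 219 30P on day 27, the same on day 39, and the first minus the second. The fit was checked on simulated data. Summaries used Python 3.11.15, pandas 2.3.3, numpy 2.4.6 and scipy 1.17.1, and matplotlib 3.10.9 drew the figures.

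Symbols and gene order came from the RefSeq table of assembly Agabi_varbisH97_2, which matched 10373 of the IDs, 88 of them with a symbol. Of 28 gene lists, 14 were filled by symbol; the other 14 needed protein annotation, which was not used here. Named genes are those with a symbol that were called, at least 2-fold apart, at 10 FPKM or more in the higher strain and without overlap; the 8 highest and 8 lowest by the same criteria; the extreme called members of lists with 3 or more genes; laccase, manganese peroxidase, abl and heat shock genes; and up to 4 genes per strain that were under 0.5 FPKM in the other. Further genes at 1000 FPKM or more, with opposite differences on the 2 days, with neighbours that differ, or with a symbol were named after their values were seen. The members and lists were chosen with earlier results of these data known. Replicate numbers did not pair the libraries. Alternatives were another pseudocount, filter, scaling, sample set and weighting, a replicate block and leaving out each of the 4 day 27 libraries of these 2 strains.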

Additional observations from a re-analysis of the deposited data

Results flagged for a closer look

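Each gene here had a strain difference (065 BP-8 minus 219 30P) that was not the same on day 27 as on day 39 by the test of the change itself (limma, adjusted p under 0.05); the value is the day 27 difference minus the day 39 difference on the log2(FPKM + 1) scale. Among the genes with the lowest differences the change was -3.91 for AGABI2DRAFT_135729 and -3.56 for AGABI2DRAFT_188178, both of which were less far apart on day 39, and 1.06 for AGABI2DRAFT_56609 and 0.74 for AGABI2DRAFT_221381, which were further apart on day 39. Among those with the highest differences it was 6.40 for AGABI2DRAFT_193563, 3.53 for AGABI2DRAFT_212363, 3.08 for AGABI2DRAFT_135047, 3.08 for AGABI2DRAFT_123399 and -1.12 for AGABI2DRAFT_181640. The genes with the lowest and highest differences were chosen by their day 27 values, and the change uses the same values. For genes less far apart on day 39, the change and its passing test are therefore in part built into the choice. For AGABI2DRAFT_193563 and AGABI2DRAFT_135047 the day 27 value rests in large part on replicate 1 of 065 BP-8.

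Among the lignin-degrading enzymes the change was -3.71 for MnP, which stood at 42.5 and 66.0 FPKM in 065 BP-8, against 3.87 and 7.54 FPKM in 219 30P on day 39. It was -1.90 for lcc1, which was called higher in 065 BP-8 on day 39 (1.82, adjusted p = 0.00207), and 1.86 for lcc3, which was called lower there (-1.53, adjusted p = 8.98e-05). For abl, the lectin gene, the change was -5.25, with 207 and 264 FPKM in 065 BP-8, against 3.87 and 2.60 FPKM in 219 30P on day 39; the part of mushroom tissue in the day 39 values was not tested. In respiration the change was -0.60 for QCR9, -0.54 for COX5B and -0.45 for COX5A, and it was 0.96 for PAL2. These genes were named as extreme called members of their lists on day 27. For QCR9, COX5A and PAL2, which were less far apart on day 39, a passing test is therefore also in part built into the choice. Some of these calls did not hold under every alternative: that of AGABI2DRAFT_56609 was lost without either library of 219 30P (adjusted p = 0.0582 and 0.103) and with a pseudocount of 0.1, as was that of AGABI2DRAFT_221381 with that pseudocount. That of AGABI2DRAFT_135047 was lost without either day 27 library of 219 30P (adjusted p = 0.117 and 0.0756), that of PAL2 without replicate 1 of either strain (adjusted p = 0.1 and 0.126), and those of QCR9 (adjusted p = 0.0508), COX5B (adjusted p = 0.112) and COX5A (adjusted p = 0.195) with median-ratio scaling.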

How the results depend on the processing

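Over the 84 genes named and the alternatives run on them, no called difference on day 27 or day 39 changed direction. The called genes, 1041 higher and 1404 lower on day 27, numbered 359 and 555 when only the 4 libraries of that day were fitted and 621 and 893 with array weights, which gave both day 27 libraries of 065 BP-8 a weight of 0.411. The genes at least 2-fold apart fell to 141 higher and 239 lower with a pseudocount of 5. The change between the days passed for 858 genes in the positive and 1796 in the negative direction as deposited, and for 1329 and 1165 with median-ratio scaling. Leaving out each of the 4 libraries in turn gave 548 to 1214 genes higher and 763 to 1539 lower, 242 to 380 and 377 to 564 of them at least 2-fold apart, and 615 to 1092 and 1230 to 2033 for the change between the days; the lone sample is then assumed to vary like the other groups. Rescaling without the most abundant gene, chosen after seeing the data, gave 1381 higher and 1110 lower. Replicate numbers did not pair the libraries, since correlations of same-numbered deviations were -0.134 to 0.129 over 15 pairs of groups. With the number as a replicate block, 978 genes were higher and 1332 lower, 287 and 445 of them at least 2-fold apart. On day 27, 68 of the 84 genes were called; 26 of them lost the call under at least 1 alternative, 25 when the 4 libraries of the day were fitted alone, 18 without 1 library and 13 with array weights. On day 39, 4 of 55 lost it under at least 1 alternative, but these alternatives were fewer, as they did not include leaving out a library. The change between the days was called for 43, of which 13 lost it under at least 1 alternative, and that of AGABI2DRAFT_56623 was 1.55 as deposited and -0.52 (adjusted p = 0.713) with a pseudocount of 0.1. Depth in fragments is unknown, so values near 1 FPKM carry an error that could not be stated.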
